A study of Mus musculus with 4 samples.

Results

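Germ cell and meiosis genes are described here on arrays of intestinal DNA from young and old mice. They were chosen by name, from a list of 42 names that stand for 39 genes. Every autosomal probe whose design name carries a listed name, alone or joined to a neighbouring gene, was taken. Of the 39 genes, 34 had such probes, among 16114 gene names on the autosomes, and together they held 200 of 82850 positioned probes. No probe of that name was found for Mei1, Syce1, Sycp2, Tdrd9 and Tex14. Rec8 was found under its older name Rec8L1, and 5 genes, Ddx4, Gdf9, Stag3, Stra8 and Tex12, share 36 of their probes by name with a neighbouring gene.

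The DNA was intestinal genomic DNA of inbred C57BL/6 mice aged 3 or 32 months, with no treatment named. Of 2 custom Agilent arrays, the first held chromosomes 1 to 8 and 21 of the 34 genes, and the second held the higher autosomes and 13. DNA of the young mice was always labelled green (Cy3) and that of the old mice red (Cy5). Each age is a single sample on each array and the dyes were never exchanged, so age and dye cannot be told apart, there is no replicate check and no p-value is given. The labels name neither the number of animals behind a sample nor their sex. How DNA was selected by its methylation is not given in the sources used here, so values are reported as signal and not as methylation.

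Genes of the germ line make sperm and eggs and carry out meiosis, and most are silent in somatic tissue such as intestine. Many of them have CpG-rich promoters that are methylated in somatic cells and unmethylated in germ cells, which makes them a much used group for studying promoter methylation. Their products fall into a few groups: factors that set germ cell fate, the cohesins and synaptonemal complex of meiotic chromosomes, oocyte factors, and the proteins of germ granules that make piRNAs and silence transposons.

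Over both arrays the values of the germline genes lay on both sides of 0. A gene's value is the log2 ratio of 32-month over 3-month signal, centred on the median of its array, taken as the median over the usable probes of each region and then the mean over the gene's regions. All ratios and folds are after centring, so on the second array a fold upwards is 1.10 times the quotient of the printed signals and a fold downwards is as much smaller. For a probe that was not well above background at 1 age, the smaller of the centred fold and that quotient is given. Such a fold rests on the dim signal as measured and is approximate. On the first array a Sohlh2 probe at 78.0 was also not well above background at 3 months. Probes counted as usable if their signal stood well above background at 1 age or both. Of the 34 genes, 33 had a region with at least 2 usable probes. Their median was 0.02, with 18 above 0 and 15 below, beside 0.02 over all 14011 measured autosomal genes. Above 0 were 54.5% of the germline genes, beside 52.6% of all genes. The sign turned in 10 of the 33 after normexp correction, another treatment of background: in Ddx4, Dppa3, Figla, Gdf9, Nanos3, Piwil1, Spo11, Stag3, Syce2 and Tex101. Of the 33 values 84.8% lay within 0.5 of 0, beside 87.1% of all genes.

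A region was called higher at 32 months when its median was at least 1, a 2-fold difference, and every usable probe was above 0, with the mirrored rule for lower. Of 40 measured germline regions 1 was called higher, that of Smc1b, and 0 were called lower. Over all 14835 autosomal regions the rule called 2.05% higher and 0.519% lower, so the germline count stood near the background. Single probes gave a wider picture. Of 163 usable germline probes 20, or 12.3%, had a log2 ratio of at least 1, beside 6.43% of all usable autosomal probes, and 6, or 3.68%, were at or below -1, beside 3.06%. Of these 20 probes 17 were among the 62 usable germline probes of the second array, where 8.18% of all probes reached 1, and 3 among the 101 of the first, where 4.73% did. On the second array 4 came from Smc1b, 4 from Dazl and 3 from Rec8L1, and 6 other genes gave 1 each. The probes of 1 gene share their stretch of DNA and are not replicates of the age difference.

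**Figure D1:**
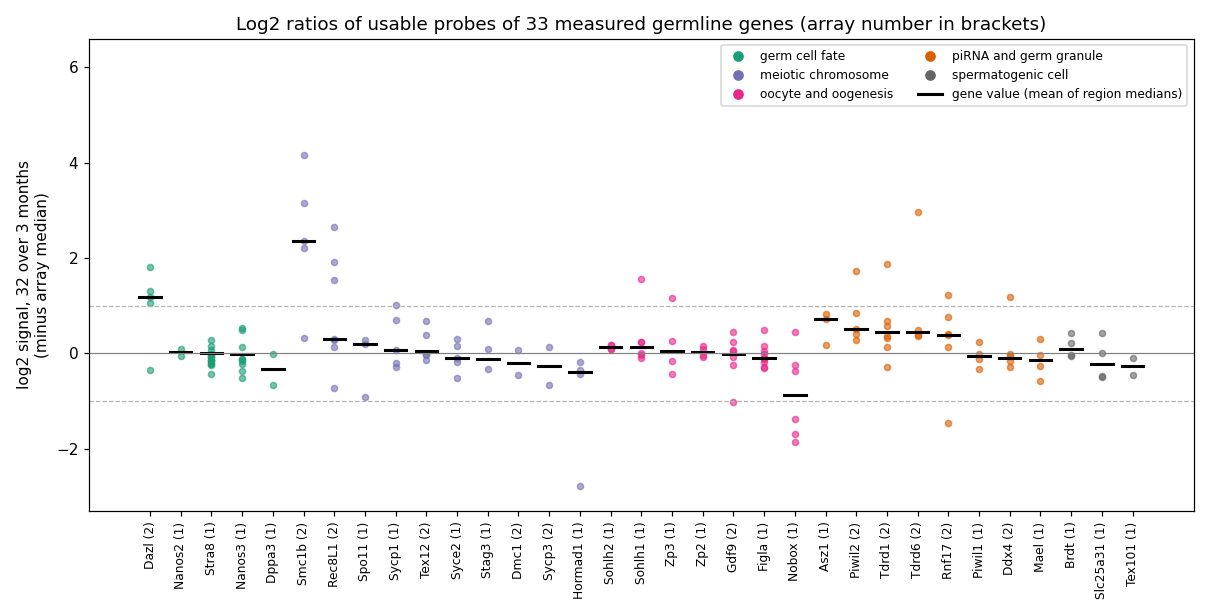
Log2 ratio of 32-month over 3-month signal, minus the array median, for each usable probe (points) of the 33 measured germline genes, grouped by role, with the array number in brackets. Black bars are gene values and dashed lines mark -1 and 1. The bars of 28 genes lie within 0.5 of 0, and Smc1b at 2.36 and Nobox at -0.87 have the highest and lowest.

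The 2 arrays were not alike. Before centring the median log2 ratio was 0.0044 on the first and -0.14 on the second, and the well-above-background probes alone had centred medians of -0.03 and 0.10. The 21 measured germline genes of the first array had a median of -0.02, with 10 above 0. Over all its genes the median was -0.03, with 43.5% above 0. The 12 of the second had a median of 0.35, with 8 above 0 and 5 at 0.4 or more. Over all genes of the second array the median was 0.09, with 62.1% above 0 and 16.3% at 0.4 or more. Between 70.8% and 72.5% of autosomal probes were well above background in each channel, and no germline probe was saturated. X-linked probes of the second array had a median of -0.07 over 2017 probes. The part of the array in the results below was not tested.

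Smc1b encodes a cohesin subunit made only in meiotic cells, which holds sister chromatids together along the chromosome axis. Its region lay at chr15:84959745-84960740 in the coordinates of the files, whose genome build is not stated, and the design annotates it as promoter. The 5 probes are printed in the order of the files' coordinates, because the age difference changed along them. CpG dinucleotides, the sites of DNA methylation, are in capitals here and in all sequences that follow.
Smc1b probe 1: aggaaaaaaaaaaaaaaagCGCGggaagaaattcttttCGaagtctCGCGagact
Smc1b probe 2: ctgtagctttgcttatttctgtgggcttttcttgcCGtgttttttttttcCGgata
Smc1b probe 3: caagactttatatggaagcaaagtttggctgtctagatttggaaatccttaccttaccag
Smc1b probe 4: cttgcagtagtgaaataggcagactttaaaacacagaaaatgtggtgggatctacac
Smc1b probe 5: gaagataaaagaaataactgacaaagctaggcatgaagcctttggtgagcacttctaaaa

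Probe 1, with 5 CpGs, lies from 76 to 21 bases upstream of the start site in the RefSeq promoter of build GRCm38.p6. Its processed signal was 249 at 3 months and 283 at 32 months, a log2 ratio of 0.32. Probe 2, with 2 CpGs and from 279 to 223 bases upstream, went from 3570 to 15100, a ratio of 2.22. Both were brighter at 32 months, by little next to the start site and by 4.66-fold farther out. Probe 3 went from 249 to 4050, which at 4.16 was 17.9-fold, between 514 and 454 bases upstream. Probe 4 went from 594 to 4800, or 3.15, and probe 5 from 1330 to 6180, or 2.36. Probes 3 to 5 hold no CpG of their own. The region's median was 2.36 ± 1.42 (SD over 5 probes), a 5.12-fold difference, and all 5 probes were well above background at both ages. The gene's brightness percentile among the autosomal probes of its array was 72.9 at 3 months and 91.8 at 32 months.

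The 250 bases before the start site of Smc1b, at chr15:85131958-85132207 on the minus strand of GRCm38.p6 in RefSeq, hold 25 CpGs. They are printed because probe 1, with the smallest difference, lies inside them, while probe 2 crosses their outer edge and probes 3 to 5 lie beyond it.
Smc1b promoter: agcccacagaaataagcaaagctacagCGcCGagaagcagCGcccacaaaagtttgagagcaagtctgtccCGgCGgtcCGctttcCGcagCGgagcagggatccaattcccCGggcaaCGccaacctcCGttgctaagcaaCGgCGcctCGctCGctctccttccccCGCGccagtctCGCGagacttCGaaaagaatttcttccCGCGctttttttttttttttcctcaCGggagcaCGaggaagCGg

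**Figure D2:**
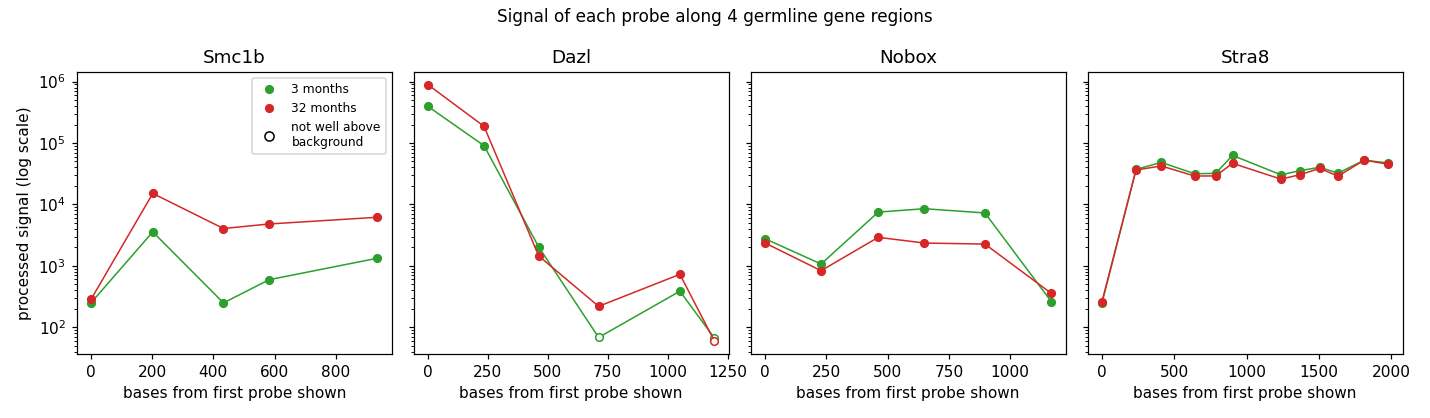
Processed signal (log scale) of each probe at 3 months (green) and 32 months (red) against its distance in bases from the first probe shown, for Smc1b, Dazl, Nobox and the part of Stra8 around its start site. Open points were not well above background. The red line lies above the green at every Smc1b probe, below it at the middle Nobox probes, and beside it along Stra8.

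None of the other cohesin and axis genes of meiosis had a called region. Rec8L1 encodes the meiotic kleisin that closes the cohesin ring, and its 7 usable probes ran from -0.73 to 2.65 around a median of 0.31. A probe from 202 to 157 bases upstream of the start site, with 3 CpGs, went from 555 to 1470, a log2 ratio of 1.54. Another probe, inside the gene, went from 69.9, not well above background, to 399, about 5.71-fold. Stag3, a further meiotic cohesin subunit, had -0.12 in its shared promoter region, and 0.16 after normexp correction. Hormad1, an axis protein that watches over chromosome pairing, had the second lowest value among the genes, -0.39. That was the median of 4 usable probes between -2.78 and -0.19, all of them below 0, and it was -0.06 after normexp correction and -0.94 with a mean over probes. The lowest of them stood alone between neighbours at -0.42 and -0.36, and fell from 870 at 3 months to 127 at 32 months, a 6.87-fold difference on a probe with 1 CpG.
Hormad1 probe 3: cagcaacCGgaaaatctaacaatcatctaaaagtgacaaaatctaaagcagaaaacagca

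Genes of the synaptonemal complex and of recombination lay between -0.27, for Sycp3, and 0.19, for Spo11. Sycp1, the transverse filament that zips homologous chromosomes together, had 0.06, and 1 of its 5 usable probes reached 1.02, at 686 and 1400. Syce2, of the central element, had -0.10, and 0.15 after normexp correction. Spo11, the enzyme that cuts DNA to start recombination, had 0.19 with 1 of 3 probes at -0.92, and -0.11 after normexp correction. Tex12, Sycp3 and Dmc1 were among the 5 dimmest measured genes, ranked here and below by the mean of both percentiles. Tex12, also of the central element, was at percentile 19.6 and 17.0, with 4 of 8 probes well above background at each age and a value of 0.05. Its signals at 3 and 32 months were 4020 and 5860, 63.0 and 55.8, 65.4 and 54.1, 58.1 and 50.5, 63.9 and 56.5, 65.6 and 58.6, 67.6 and 80.7, and 2100 and 1900, so only its first and last probes were bright. The last 3 probes form a separate region under the joint name Tex12-Il18, at 0.195. The joint region nearer the first probe had -0.09. Sycp3, of the lateral element, was at 20.0 and 22.8, and each of its 2 usable probes was well above background at 1 age only. They had 63.8 and 63.8, and 112 and 63.8, and its other 2 probes 63.9 and 56.5, and 67.6 and 57.2. Dmc1, the recombinase of meiotic strand exchange, was at 32.0 and 21.7, with a value of -0.20 from 2 usable probes at -0.46 and 0.07. These went from 85.3 to 56.3 and from 210 to 200, and its dimmer probes from 73.9 to 63.3 and from 58.3 to 50.8. Over the 10 genes of meiotic chromosomes the median value was -0.02, with 5 above 0 and 5 below.

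Among genes of germ cell fate the largest value belonged to Dazl, which encodes an RNA-binding protein needed for germ cells to develop and enter meiosis. Its region lay at chr17:49758833-49760087. From inside the gene outwards the signals were 395000 at 3 months and 891000 at 32 months, then 90400 and 187000, then 2030 and 1450. The first 2 lie inside the gene and probe 3 from 152 to 107 bases before its start site. Probe 4, from 415 to 357 bases before it, had 68.2, not well above background, and 219, about 3.21-fold. Probe 5 had 386 and 727, and probe 6 was not well above background at either age. The median was 1.19 ± 0.81 (SD over 5 probes), and 0.67 after normexp correction. The region met the 2-fold threshold and was not called, because the probe beside the start site was lower at 32 months, at -0.35. Probes 3 and 4 are printed, since both hold 4 CpGs and they differed in direction.
Dazl probe 3: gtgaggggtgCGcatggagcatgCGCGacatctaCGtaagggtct
Dazl probe 4: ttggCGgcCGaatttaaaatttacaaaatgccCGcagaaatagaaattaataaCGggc

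Stra8, which retinoic acid switches on to license entry into meiosis, was the brightest gene of the group, at percentile 98.6 at 3 months and 97.8 at 32 months. Of its 15 probes, 12 carry the joint name 9530020G05Rik-Stra8 and 3 the name Stra8. The run of 11 probes from 34849661 on chromosome 6 onwards had signals between 30300 and 62900 at 3 months and between 25800 and 52600 at 32 months. The probe before that run, 236 bases away and from 1675 to 1622 bases before the start site, had 244 and 258. Along the whole run the log2 ratio stayed between -0.43 and -0.0016. Probe 4 is that dim probe, probe 5 is the first of the run, and probe 9 was the brightest at 3 months.
Stra8 probe 4: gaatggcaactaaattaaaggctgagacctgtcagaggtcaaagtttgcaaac
Stra8 probe 5: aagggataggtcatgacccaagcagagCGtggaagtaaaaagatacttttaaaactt
Stra8 probe 9: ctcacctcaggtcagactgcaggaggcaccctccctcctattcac

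The promoter of Stra8 was poor in CpG where that of Smc1b was rich. Its 250 bases before the start site, at chr6:34920698-34920947 on the plus strand of GRCm38.p6, hold 5 CpGs, and the probe that lies from 170 to 121 bases upstream had 40300 and 38600.
Stra8 promoter: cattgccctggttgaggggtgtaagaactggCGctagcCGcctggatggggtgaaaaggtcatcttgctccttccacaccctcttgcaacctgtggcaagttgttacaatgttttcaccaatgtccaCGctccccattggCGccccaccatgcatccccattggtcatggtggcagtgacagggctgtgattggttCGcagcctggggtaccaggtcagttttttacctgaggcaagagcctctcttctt

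Nanos3, which protects migrating germ cells, was the third brightest gene, at percentile 84.9 and 88.8. Its 9 probes had 3-month signals from 747 to 36100 and 32-month signals from 579 to 39500, with 2 CpGs in all, and all 9 were well above background at both ages. In the region around the start site they went from 1170 to 815, from 747 to 579, from 1260 to 1080, from 5240 to 4860 and from 36100 to 39500, and farther out from 5830 to 5420, from 9420 to 8410, from 2690 to 3920 and from 1840 to 2580. Its region around the start site had -0.23 and the one farther out 0.19. Nanos2, which maintains male germline stem cells, had 0.02 over 2 probes. Dppa3, known for guarding the maternal genome in the early embryo, had the third lowest value, -0.33, from 2 usable probes that went from 363 to 231 and from 2360 to 2350, and its sign turned after normexp correction, at 0.10, and with dim probes kept, at 0.01. Dppa5, a marker of pluripotent and early germ cells, had 2 probes too far apart to form a region, at 75.7 and 142 and at 61.4 and 76.6, the latter not well above background at 3 months. The 5 measured genes of germ cell fate had a median of 0.001.

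The lowest value of all was that of Nobox, a homeobox factor that drives the growth of primordial follicles. Its region lay at chr6:43238860-43240087 and was bright, at percentile 89.4 and 83.2, with all 6 probes well above background at both ages. The 2 probes inside the gene went from 2770 to 2360 and from 1070 to 834. The next 3, between 655 and 160 bases before the start site, went from 7490 to 2910, from 8510 to 2350 and from 7260 to 2260, log2 ratios of -1.37, -1.86 and -1.69. The outermost probe went from 260 to 355, a ratio of 0.44. The larger differences thus sat on 3 neighbouring probes, between flanks at -0.36 and 0.44. The region's median was -0.87 ± 0.93 (SD over 6 probes), a 1.82-fold lower signal, and no call was made. After normexp correction it was -0.40. The sequences of the 3 probes and of the outermost are shown, and none of them holds a CpG.
Nobox probe 3: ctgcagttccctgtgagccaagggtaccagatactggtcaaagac
Nobox probe 4: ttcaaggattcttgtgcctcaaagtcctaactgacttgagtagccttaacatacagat
Nobox probe 5: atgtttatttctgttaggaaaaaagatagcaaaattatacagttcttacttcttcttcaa
Nobox probe 6: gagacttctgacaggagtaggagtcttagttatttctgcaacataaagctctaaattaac

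The other 6 oocyte genes lay between -0.10 and 0.13. They were the transcription factor genes Figla, Sohlh1 and Sohlh2, the genes of the egg coat proteins Zp2 and Zp3, and Gdf9, a growth factor that oocytes send to the follicle. Sohlh2 was the most even of them, with 4 usable probes between 0.09 and 0.18. Sohlh1 had 1 probe at 1.56, at 185 and 547, among 5 others between -0.10 and 0.24. Zp3 had 1 probe at 1.17, inside the gene and with 4 CpGs, at 341 and 770. In Gdf9 1 probe went from 129 to 57.8, not well above background at 32 months, about 2.03-fold lower. Over the 7 oocyte genes the median percentile was 63.5 at both ages.

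Genes of the piRNA pathway and the germ granule had the highest median value of the groups, 0.42 over 8 genes, with 5 above 0. Of these 8 genes 5 lay on the second array, with a median of 0.44, and 3 on the first, with -0.06, and the genes of the second array as a whole were also the higher ones. Piwil2, an Argonaute protein that binds piRNAs, had 5 of 5 probes above 0, between 0.28 and 1.72, and was the fifth brightest gene at percentile 84.3 at both ages. Its median was 0.50, and 1.14 after normexp correction, when the region was called higher. The signal went from 329 to 394, from 4340 to 5590, from 1570 to 1730, from 3950 to 6490 and, farthest out, from 417 to 1250. The 5 probes thus differed in size and not in direction.

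The Tudor domain genes with probes, Tdrd1, Tdrd6 and Rnf17, make products that build the germ granule, and each had a value above 0. After normexp correction the values were still above 0, at 0.61 for Tdrd6, 0.06 for Tdrd1 and 1.08 for Rnf17. These genes lie on the second array, where 62.1% of all genes were above 0. Tdrd6, at 0.44, had 4 usable probes of which 3 lay between 0.36 and 0.50, and 1 rose from 1430 to 10200, 7.86-fold, with no CpG in its sequence.
Tdrd6 probe 2: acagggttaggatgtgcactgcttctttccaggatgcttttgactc

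Tdrd1, at 0.45, had 0.67 in a first region, where 2 of 3 usable probes were not well above background at 3 months, and 0.22 in a second. Rnf17, at 0.39, was the second brightest gene at percentile 85.1 and 88.8. Its signals were 194 and 63.6, then 423000 and 423000, 615000 and 726000, 1270 and 1950, 2430 and 5150, and 220 and 265. The brightest pair, above percentile 99 at both ages, lay between far dimmer probes. The first probe was not well above background at 32 months, about 2.77-fold lower. Asz1, an ankyrin protein of the piRNA machinery, was at percentile 14.5 and 23.8. It had the third largest value of all genes, 0.72. This was carried by a probe at 57.6 and 95.4 that was not well above background at 3 months, about 1.65-fold. Its other usable probes went from 65.7 to 117 and from 2380 to 2710. With dim probes kept its value was 0.10, and after normexp correction 0.01.

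Ddx4, the Vasa RNA helicase found in germ cells across animals, held the brightest probe of the group, at 1070000 at 3 months and 2210000 at 32 months, a log2 ratio of 1.19. It lies from 250 to 205 bases before the start site. The next probe of the region, 375 bases away, had 73.8 and 60.4, and the gene's value was -0.10, with 0.47 after normexp correction and 0.09 with means over probes. Of all probes of the 34 genes 5 were above percentile 99 at both ages, and they belonged to Dazl, Ddx4 and Rnf17. Those of Ddx4 and Rnf17 hold no CpG, as their sequences show.
Ddx4 probe 1: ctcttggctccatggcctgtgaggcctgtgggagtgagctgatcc
Rnf17 probe 2: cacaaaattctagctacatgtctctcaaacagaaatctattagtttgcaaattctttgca
Rnf17 probe 3: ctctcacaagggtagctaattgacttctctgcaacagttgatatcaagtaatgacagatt

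Piwil1, a further Argonaute protein, and Mael, which works in transposon silencing, had -0.06 and -0.15, and the sign of Piwil1 turned after normexp correction, at 0.25, and loess, at 0.01. Among genes of spermatogenic cells Brdt, a chromatin reader of spermatids, had 0.10, and 1 of its promoter probes had 10300 and 12100. Tex101, a surface protein of germ cells, had -0.27, and 0.13 after normexp correction. Slc25a31, the ADP and ATP carrier of sperm mitochondria, was among the 5 dimmest measured genes at percentile 30.5 and 26.9. Its usable probes went from 884 to 642, from 94.2 to 66.6, from 71.5 to 97.1 and from 724 to 736, so they differed in direction, and the gene's value was -0.22.

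With both arrays pooled, the germline genes were somewhat brighter than other genes at each age. The median over the 34 genes was percentile 59.7 at 3 months and 59.4 at 32 months, beside 49.97 and 49.8 over all autosomal genes. It did not hold in every sample: of the 13 genes on the second array the middle one at 3 months, Gdf9, stood at 42.7. A second list of 62 other germline genes had 49.1 and 48.4, and 36 housekeeping genes had 51.1 and 51.7. Both percentiles of a gene were above 75 for 6 germline genes, or 17.6%, beside 12.8% of all genes, and below 25 for 3, or 8.82%, beside 12.0%. Between the ages the percentile moved by less than 10 in 29 genes, and the share over all genes is not given. It moved by more in Smc1b, Rec8L1, Dppa5 and Dmc1, of the second array, and in Hormad1, of the first. Brightness moves with the base composition of a probe, as given next, so it does not rank methylation between genes.

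**Figure D3:**
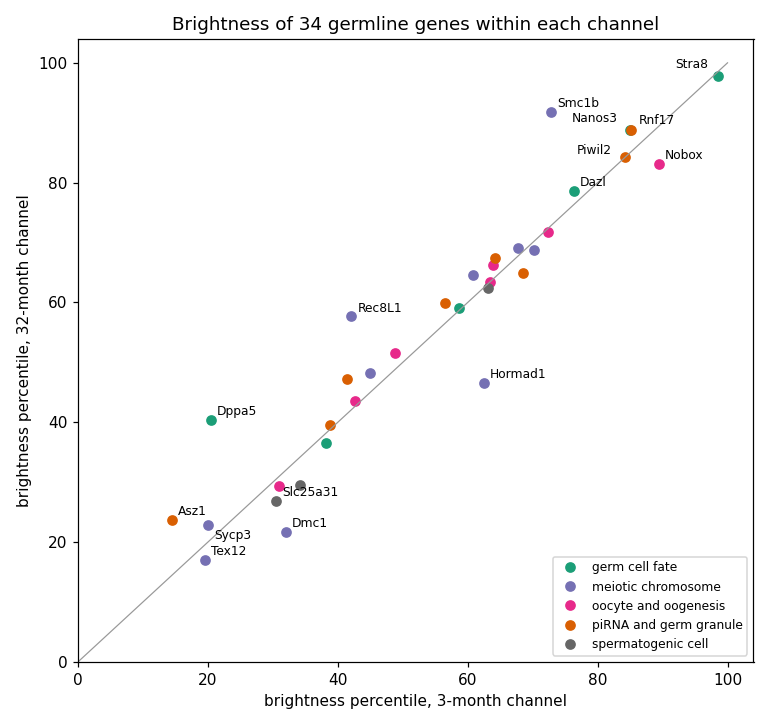
Brightness percentile of each of the 34 germline genes (median over its probes) in the 3-month channel (x axis) and the 32-month channel (y axis), coloured by role, with a line of equality. Stra8 sits in the upper corner at 98.6 and 97.8, Smc1b lies above the line at 72.9 and 91.8, and Hormad1 below it at 62.5 and 46.6.

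Over all autosomal probes the median 3-month percentile rose from 39.1 without a CpG to 78.9 with 5. Of the 199 unflagged germline probes 91 had no CpG, and these stood at percentile 56.5, while the 64 with 1 CpG stood at 45.2, below the 51.1 of all such probes. These medians count probes and not genes, so genes with many probes, such as the bright Stra8 with 15, weigh more. When each probe was ranked only among probes with as many CpGs, the median of the germline genes was 50.5 at 3 months and 57.2 at 32 months, beside 49.2 and 49.0 for all genes. With both arrays pooled, the difference from all genes was thus small at 3 months and larger at 32 months. The arrays differed in this. Of the 13 genes on the second, the middle one stood at 45.9 at 3 months (Tdrd1) and 65.6 at 32 months (Rec8L1). Of the 21 on the first, the middle one stood at 50.8 (Sycp1) and 55.3 (Sohlh1). By position, 114 promoter probes stood at percentile 50.7 and 45 probes inside genes at 67.7, beside 43.8 and 62.2 for all probes of these kinds.

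**Figure D4:**
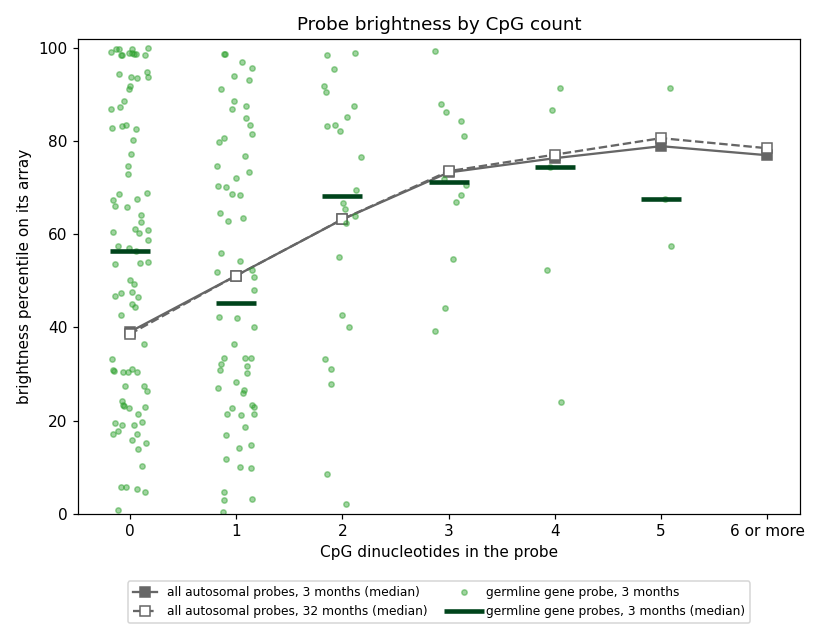
Brightness percentile of a probe on its array against the number of CpG dinucleotides it holds. Squares are medians of all autosomal probes at 3 months (filled) and 32 months (open), green points are single germline gene probes at 3 months, and dark bars are their medians. The grey line climbs from 39.1 to 78.9 over the first 5 CpGs, and the dark bar lies above it at 0 CpGs, at 56.5, and below it at 1, at 45.2.

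RefSeq promoters of build GRCm38.p6, from 250 bases before to 50 after the start site, were matched by symbol for 26 of the 34 genes. Their median CpG observed over expected ratio was 0.71, beside 0.42 over 25748 autosomal genes. A pair of short motifs of known germline gene repressors were searched on both strands: CACGTG, the E-box bound by MGA and MAX, and TTCCCGC, a form of the E2F6 site. The motifs do not contain each other. CACGTG was found in 14 of the 26 genes, or 53.8%, beside 8.11% of all autosomal genes, and TTCCCGC in 8, or 30.8%, beside 5.34%. Both motifs contain a CpG. The median was 18.5 CpGs in the germline promoters and 8.0 over all, and the comparison was not matched for CpG content. A match describes the sequence and shows no binding. The 14 genes with CACGTG had a median log2 ratio of -0.08 and the 12 without 0.01. By CpG content, 16 genes with an observed over expected ratio of at least 0.6 were at percentile 51.5 and 52.4, and the 10 below it, Stra8, Nanos3 and Nobox among them, at 64.1 and 66.8.

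Of the other germline genes, 58 of 62 were measured, with a median of 0.11. Of their 66 regions 1 was called higher, that of Lin28, an RNA-binding protein of early germ and stem cells, at 1.42 ± 0.82 (SD over 7 probes) on chromosome 4 from position 133290607, and 0 were called lower. Lin28 was also the brightest of that list, at percentile 94.2 and 96.1. Boll, a relative of Dazl, followed at 91.5 and 91.4 with a value of 1.95 and no call, since its lowest probe was at -0.20, and Cpeb1 at 89.7 and 89.4 had 0.01. No region of the 33 measured housekeeping genes was called, and their median was -0.02. The brightest of them, Snrpd3, Vps29 and Hnrpa1, had values of 0.46, -0.20 and -0.35.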

How the data were processed

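Per the labels' protocols, a phenol and chloroform extraction gave the DNA, and labelling followed Agilent. The submitters' processing notes name Agilent Feature Extraction 9.1.3.1. The intensity values deposited by the authors are processed signals, background-subtracted and scaled between dyes per the file headers. Both scanner files of an array were identical, and the authors' value table equalled these signals in 100% of spots. The mean and local background intensity values deposited in the same files served for normexp.

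The members, gene lists, call rule and alternatives were chosen with earlier results of these data known. Control spots and probes with an outlier flag (1 member probe) were left out. Log2 ratios of red over green were centred on the array median of all unflagged probes. Probes of 1 design name at most 1000 bp apart formed a region, which needed 2 usable probes. For a probe not well above background at 1 age, the dim signal was not taken below a floor. This floor was the lowest well-above-background signal of that channel. Brighter probes could also fail to stand well above background, so such a fold is approximate and no strict bound. Values per probe, or their range along the run of Stra8, are given for genes with a called region, for the 5 brightest and 5 dimmest measured genes, and for the 3 largest values in each direction. The probes of Rec8L1, Tdrd6, Ddx4 and others named singly were chosen after their values were seen. Signal over background limits the precision, and the number of arrays does too. RefSeq tables gave names and promoters only. Python 3.11.15, pandas 2.3.3, numpy 2.4.6, R 4.3.3 and limma 3.58.1 were used. Alternatives were uncentred ratios, centring on usable autosomal probes (added after seeing the data), loess (span 0.3), normexp (offset 50), other probe filters, means in place of medians, other call thresholds and other reference sets for brightness. Named genes of the other germline and housekeeping lists are those with a called region and the 3 brightest.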

Additional observations from a re-analysis of the deposited data

How the results depend on the processing

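The call of Smc1b held under every alternative run. After normexp correction 2 germline regions were called higher, with Piwil2 at 1.14, and with a call at 0.5 in place of 1 there were 4. The shares of all autosomal regions called under these settings are not given, so these counts cannot be set against a background. No germline region was called lower under any alternative run. The median log2 ratio of the germline genes was 0.15 after normexp correction. That of all genes under it is not given, nor is the share of all genes whose sign turned, so neither can be read as particular to the germline genes. At 3 months the median percentile was 50.5 among probes of the same CpG count, 54.2 among probes of the same kind of position, 54.4 with means over probes and 67.7 with only probes well above background. Of the values of single genes under the alternatives, 250 stayed within the spread over probes or kept their call, 9 moved by more, and 2 passed the call rule, Piwil2 after normexp correction and Tdrd6 with means, at 1.05. The 250 include 33 from the authors' value table, which equals the signals used, so those could not differ. A value within the spread was counted as staying even where its sign turned. Of the 9, 7 moved after normexp correction, among them Asz1, to 0.01, and Ddx4, to 0.47. Of 33 genes the sign turned in 10 after normexp correction, 5 with dim probes kept, 3 each with loess and with means over probes, 2 each with centring on usable autosomal probes and (of 30) with probes well above background at both ages, 1 without centring and 0 in the authors' value table. The cause was not tested. No paired analysis was possible because each group has 1 sample.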
